A study of Mus musculus with 14 samples.

Results

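The genes described here encode the subunits of the constitutive proteasome. They were taken as every row of the count table whose symbol is Psma, Psmb, Psmc or Psmd followed by a number, without the inducible subunits Psmb8, Psmb9 and Psmb10. That gave 36 of 55228 rows, 16 of the core particle (Psma and Psmb) and 20 of the regulatory particle (Psmc and Psmd). RNA was sequenced from cultured mouse tail epidermal cells of the genotype Lrig1CreER/Rosa-TdTomato. In it an inducible Cre driven from Lrig1 marks cells that express Lrig1 at induction, and their descendants, with a red fluorescent label. The label therefore follows that lineage. All cells were collected at the time point labelled 8w pw1, sorted for the surface antigen Sca1, grown for 1 week in medium for keratinocytes and given no treatment. The groups differ in where the cells were taken: 8 libraries came from the control, non-memory region and 6 from the distal memory region. Library descriptions divide the control libraries into sets of 6 and 2 and the distal libraries into sets of 2 and 4, no set holds both regions, and no label states that the libraries are separate animals or cultures, so the p-values speak for the spread among these libraries alone, and that spread may be technical.

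The proteasome is the main protease of the cytosol and nucleus for proteins tagged with ubiquitin. Its core is a barrel of stacked rings, in which the outer alpha rings guard the entrance and the inner beta rings carry the active sites. The regulatory particle caps the barrel, with a ring of ATPases that unfolds the substrate and non-ATPase subunits that bind ubiquitin, remove it and hold the cap together. The subunit genes are known to be raised together by the transcription factor Nfe2l1 when proteasome activity falls short, and epidermal cells, which turn over steadily, rely on the proteasome for the timed removal of cell cycle and signalling proteins.

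Total counts were 4515646 to 7458872 in the control libraries and 2137934 to 4513518 in the distal libraries, with no overlap. The keratinocyte markers Krt5, Krt14, Krt15, Trp63, Itga6 and Itgb4 summed to 5632 to 9324 CPM (counts scaled to a common library total) in control and 9520 to 17464 CPM in distal libraries, and of the 5 tested 3 rose and 2 fell. Marker sums were 0.535 to 241 CPM in control and 2.30 to 88.7 CPM in distal libraries for fibroblasts, 15.4 to 47.5 and 12.7 to 41.0 CPM for melanocytes, 1.89 to 9.86 and 3.87 to 9.51 CPM for endothelial cells, and at most 0.473 and 1.37 CPM for immune cells. Lum, Dct, Cd3e, Trdc, Cd207 and Cdh5 had no count in any library, and no tested marker of these other cell types passed the test. In the fit across all genes, 48.3% of 11757 tested genes passed an edgeR adjusted p of 0.05, and the median log2 fold change over all of them was -0.16 (distal minus control), or 0.00 with upper-quartile scaling, which is the shift that the fold changes below are read against. The part of cell composition in the subunit values was not tested.

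In distal cells 14 of the 34 tested subunit genes rose, 9 fell and 11 did not pass, where 24.3% of all tested genes rose and 24.1% fell. The median log2 fold change over the subunits was 0.23. In the beta ring 5 of 7 rose and none fell (median 1.09), whereas in the alpha ring 1 of 7 rose and 4 fell (median -0.47). Among the ATPases 3 of 6 rose and 1 fell (median 0.42), and among the non-ATPase subunits 5 of 14 rose and 4 fell (median 0.07). In the libraries over 4000000 counts (8 control and 2 distal), where 8.89% of genes were called, 4 of the 14 core genes rose and none fell, and 5 of the 20 regulatory genes rose and 1 fell. These are levels of RNA in pools of cells, so fewer cells that express a gene and less RNA per cell cannot be told apart.

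**Figure D1:**
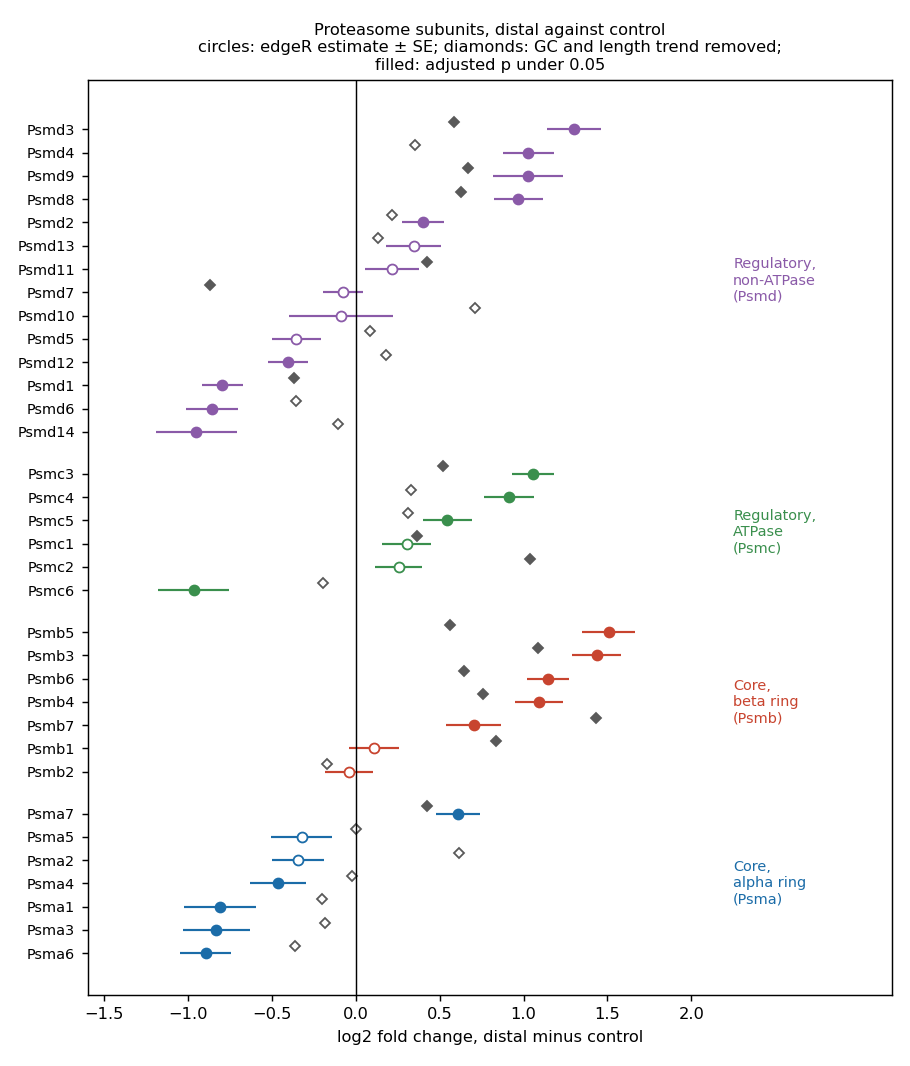
Log2 fold change (distal minus control, horizontal axis) of the 34 tested subunit genes, grouped by family. Circles with bars are the edgeR estimate ± SE and diamonds the estimate after the trend with GC content and transcript length was removed; filled symbols passed an adjusted p of 0.05. Of the 7 beta ring genes 5 lie to the right with filled circles, and of the 7 alpha ring genes 4 lie to the left with filled circles.

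The remaining members, Psma8, the testis form of an alpha subunit, and Psmb11, the thymus form of a beta subunit, were left out of the test for low counts. Psma8 had no count in any library, and Psmb11 had 3 counts, all in 1 distal library. A count of 0 allows up to 3 counts, which is 0.447 to 1.21 CPM in these libraries. Every tested subunit had at least 67 counts in every library.

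Transcript composition moved with these fold changes. Over the 34 subunits the log2 fold change and the median GC content of a gene's transcripts had a Spearman correlation of 0.81, and over 11654 tested genes it was 0.73; these are correlations across genes, which are not independent replicates. Among the 9 subunits in the GC range from 51.5 to 55.4%, all 9 rose, where 40.4% of all genes in that range rose and 5.75% fell. Among the 6 subunits below 44.1% GC none rose and 4 fell, where 0.343% of all genes in that range rose and 53.3% fell. The alpha ring genes had a median GC content of 45.7% and the beta ring genes of 52.2%, with 50.8% for the ATPases and 50.0% for the non-ATPase subunits. Whether GC content or the region sets these differences was not tested, since each fold change carries both.

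A fit in which each library's trend with GC content and transcript length was removed gives the values beside that trend. It called 18.9% of 11654 genes, 10.4% higher and 8.56% lower. Of the subunits 14 rose and 2 fell in it. The beta ring kept 5 of its rises and gained Psmb1, while no alpha ring gene fell. Of the 23 subunits called without the removal, 11 were called with it in the same direction, 0 in the opposite direction and 12 not at all, and 5 others were called only with it. Over the subunits the correlation of the fold change with GC content was then 0.20. With the trend taken from the principal transcripts in place of the median over a gene's transcripts, an alternative chosen after seeing the data, 8 subunits rose and 3 fell, where 9.27% of genes rose and 7.49% fell. In that fit Psmb6, Psmc1, Psmc3, Psmd3, Psmd8 and Psmd11 did not pass (0.25, 0.35, 0.26, 0.26, 0.35 and 0.36). Psma6 and Psmd6 were called lower in it (-0.53 each).

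**Figure D2:**
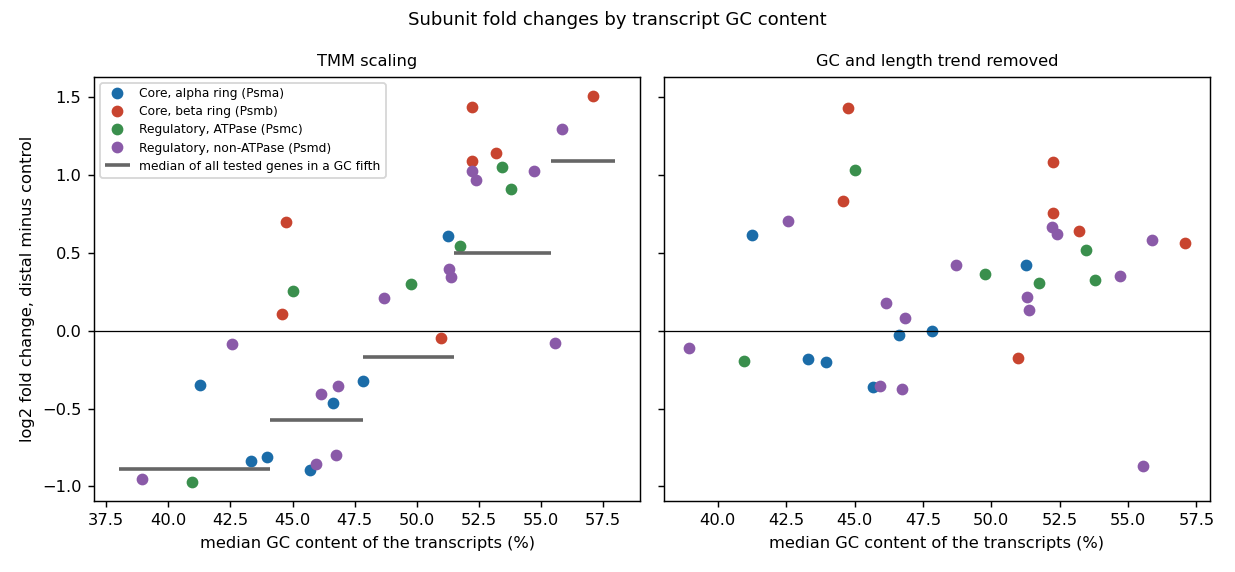
Log2 fold change of each tested subunit gene (vertical axis, distal minus control) against the median GC content of its transcripts in percent (horizontal axis), with TMM scaling on the left and after the GC and length trend was removed on the right. Colours mark the 4 families and grey lines the median of all tested genes in each of 5 GC bins of like gene number, drawn within the plotted range; the Spearman correlation over the subunits is 0.81 on the left and 0.20 on the right.

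The alpha ring is built from 7 subunits, of which Psma1, Psma3, Psma4 and Psma6 fell in distal cells and Psma7 rose. Psma6 (chromosome 12, 55384222 to 55418454, GRCm38) had a lowest, median and highest value of 380.4, 478 and 723 CPM in the control libraries and of 226, 282 and 297 CPM in the distal libraries. Every distal library lay below every control library, which was so for 5.65% of all tested genes. The log2 fold change of Psma6 was -0.90 ± 0.15 (SE, edgeR adjusted p = 0.000118) and, with the trend removed, -0.36 (edgeR adjusted p = 0.0755). Psma3 (chromosome 12, 70974621 to 70996347) ran from 767 over 984 to 1141 CPM in control and from 353 over 429.9 to 899 CPM in distal libraries. Distal libraries 3 and 4 had 899 and 728 CPM, the former within the control range, while the other 4 lay between 353 and 435 CPM. Its log2 fold change was -0.83 ± 0.20 (SE, edgeR adjusted p = 0.00247), and -0.18 with the trend removed (edgeR adjusted p = 0.368).

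Psma7, the alpha subunit that rose (chromosome 2, 180036374 to 180042433), had 234, 283 and 364 CPM as the lowest, median and highest control value and 380.0, 440.4 and 509 CPM in distal libraries. All distal libraries lay above all control libraries, which was so for 12.7% of all tested genes. Its log2 fold change was 0.61 ± 0.13 (SE, edgeR adjusted p = 0.00113), and 0.43 with the trend removed (edgeR adjusted p = 0.0112). Psma1 followed Psma3 in its pattern, with 582, 704 and 912 CPM in control libraries and 264, 329.5 and 642 CPM in distal libraries, the highest again in distal libraries 3 and 4 (635 and 642 CPM). The fall of Psma1 was 0.81 on the log2 scale (edgeR adjusted p = 0.00476), and with the trend removed its log2 fold change was -0.20 (edgeR adjusted p = 0.391). Psma4 passed with the lowest margin, at -0.47 (edgeR adjusted p = 0.0289). It did not pass without control library 1, 6, 7 or 8, nor without any 1 of the 6 distal libraries (edgeR adjusted p from 0.0522 to 0.154). Psma2 at -0.35 and Psma5 at -0.32 did not pass. With counts summed per set none of the 4 falls passed.

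The beta ring holds the catalytic subunits Psmb5, Psmb6 and Psmb7, which cut after hydrophobic, acidic and basic residues, together with structural subunits. Psmb5 (chromosome 14, 54614119 to 54618022, GRCm38), the site that bortezomib blocks, had a lowest, median and highest value of 38.4, 52.5 and 74.3 CPM in control libraries and of 135, 159.7 and 176 CPM in distal libraries. All distal libraries lay above all control libraries. Its log2 fold change was 1.51 ± 0.16 (SE, edgeR adjusted p = 2.36e-06) and 0.56 with the trend removed (edgeR adjusted p = 0.00419). Psmb6 (chromosome 11, 70525367 to 70527858) ran from 115 over 137 to 164 CPM in control and from 233 over 308 to 356 CPM in distal libraries. Here too the groups did not overlap, and the log2 fold change was 1.14 ± 0.13 (SE, edgeR adjusted p = 3.42e-06). With the trend removed it was 0.64 (edgeR adjusted p = 0.000408), and with the trend of the principal transcripts 0.25 (edgeR adjusted p = 0.0958). Psmb7 (chromosome 2, 38588036 to 38644087) had 61.4, 70.9 and 119 CPM in control and 100.4, 129 and 154 CPM in distal libraries, which overlapped. It rose by 0.70 ± 0.16 (SE, edgeR adjusted p = 0.00199), and unlike the other catalytic genes it had a larger estimate with the trend removed, 1.43 (edgeR adjusted p = 7.05e-05). With the trend of the principal transcripts the estimate of Psmb7 was 0.84 (edgeR adjusted p = 0.00062). Psmb7 shares 253 bases of exon with Nek6 on the opposite strand, which had 1229 counts over all libraries to 5984 for Psmb7, so the Psmb7 value is uncertain. In the libraries over 4000000 counts, Psmb7 at 0.59 and Psma7 at 0.55 did not pass (edgeR adjusted p = 0.152 and 0.074).

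Of the structural beta genes, Psmb3 (chromosome 11, 97703399 to 97713500) had a lowest, median and highest value of 45.1, 66.6 and 80.8 CPM in control and of 137, 176 and 203 CPM in distal libraries, with no overlap. Its log2 fold change was 1.44 ± 0.15 (SE, edgeR adjusted p = 2.03e-06), and 1.09 with the trend removed (edgeR adjusted p = 4.72e-05). Psmb3 was the only subunit whose call held in each of the 32 alternative fits, with log2 fold changes from 0.79 to 1.63. Psmb4, another structural beta subunit, ran from 70.3 to 131 CPM in control and from 169 to 228 CPM in distal libraries and rose by 1.09 ± 0.14 (SE, edgeR adjusted p = 1.19e-05). It kept this rise with the trend removed (0.76, edgeR adjusted p = 0.000277). Psmb1 was at 0.11 (edgeR adjusted p = 0.57), and passed only in fits with a trend removed (0.83, edgeR adjusted p = 0.00411). Psmb2 was at 204 to 330.2 CPM in control and 198 to 306 CPM in distal libraries, and its log2 fold change was -0.04 ± 0.14 (SE, edgeR adjusted p = 0.817).

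**Figure D3:**
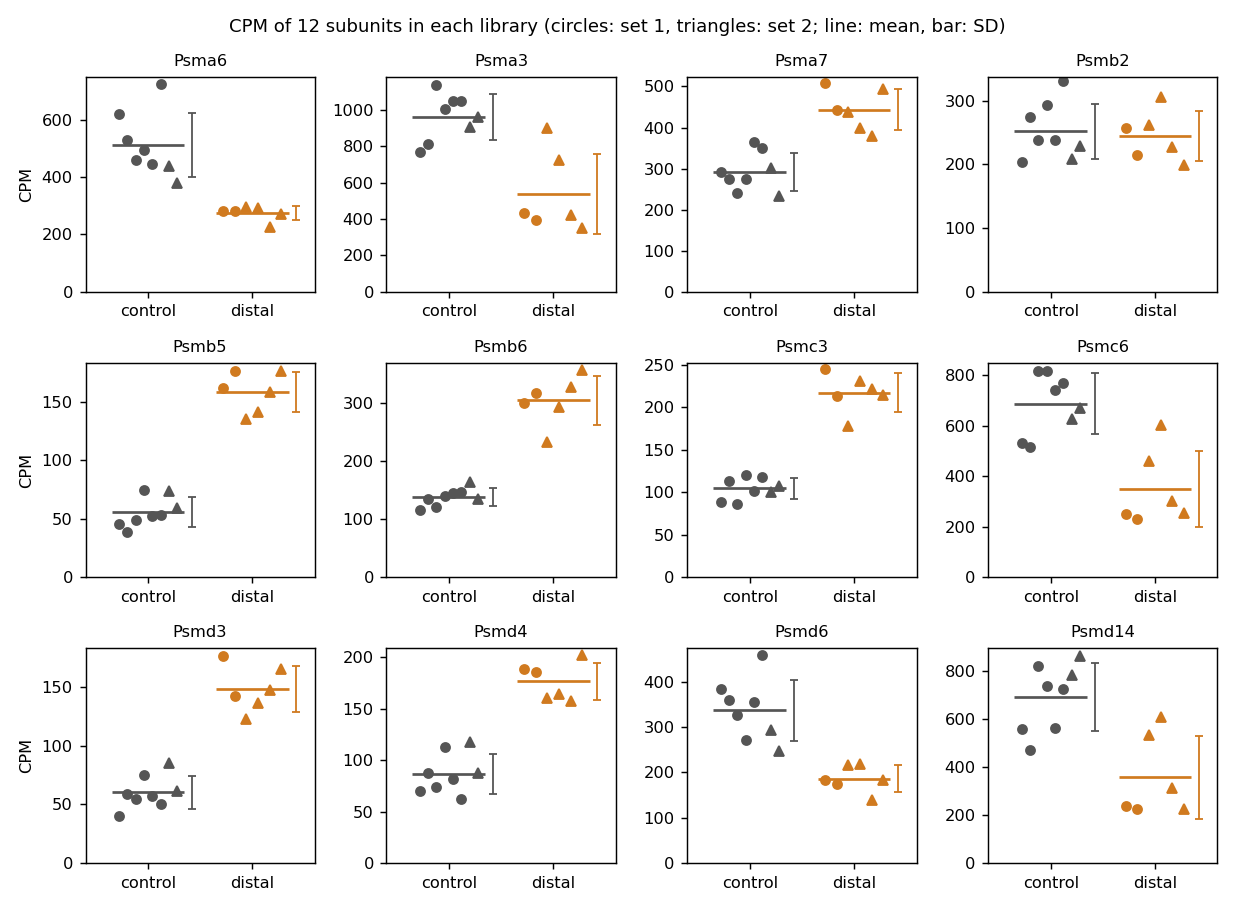
CPM (vertical axis, from 0) of 12 subunit genes in each of the 8 control and 6 distal libraries; circles are set 1 and triangles set 2 of each region, with the mean as a line and the SD as a bar. The groups are apart for Psma6, Psma7, Psmb5, Psmb6, Psmc3, Psmd3, Psmd4 and Psmd6, and overlap for Psma3, Psmc6 and Psmd14, where distal libraries 3 and 4 are the highest distal ones, and for Psmb2.

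Promoter sequences were looked at because subunit genes are known to carry antioxidant response elements, the sites bound by Nfe2l1 and Nfe2l2. The letters TGACNNNGC of the element's centre were searched on both strands in the 250 bases before each RefSeq start site (GRCm38.p6). They share their opening letters TGAC with the cAMP response element, so a match can be either. A match was found for 5 of the 29 subunit genes with an entry (17.2%), against 11.5% of 27025 genes and 10.2% of 32851 promoters. The matches are shown with up to 20 bases on each side, on the gene's own strand, with the motif in capitals; those of Psmc6 and Psmd12 read on the opposite strand.
Psmb5, chr14:54618014-54618062, minus strand: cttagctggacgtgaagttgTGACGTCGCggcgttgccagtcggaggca
Psmb6, chr11:70525328-70525356, plus strand: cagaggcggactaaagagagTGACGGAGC
Psmd9, chr5:123228139-123228187, plus strand: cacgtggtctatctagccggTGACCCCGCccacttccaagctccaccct
Psmc6, chr14:45329577-45329625, plus strand: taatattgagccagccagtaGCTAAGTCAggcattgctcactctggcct
Psmd12, chr11:107479278-107479309, plus strand: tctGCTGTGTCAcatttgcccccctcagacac
Of these genes Psmb5, Psmb6 and Psmd9 rose and Psmc6 and Psmd12 fell. In the genes that rose the motif began 47, 9 and 31 bases before the start site, and in those that fell 227 and 247 bases before it. These are 5 genes with no distances of other genes set beside them, and a link of distance to direction was not tested. Psma7, Psmb3, Psmb4, Psmc4, Psmc5, Psmd2, Psmd4 and Psmd8, which rose as well, had no match in this window. Nor had Psma1, Psma3, Psma4, Psma6, Psmd1, Psmd6 and Psmd14, which fell. A match describes letters and is not a binding site. Genes with no entry were Psma8, Psmb1, Psmb2, Psmb7, Psmc3, Psmd3 and Psmd7.

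The gap between the beta and the alpha ring genes in mean log2 CPM, which is not per length and is therefore read only between libraries, was smaller in all 6 distal libraries than in the 8 control libraries. The mean log2 CPM of the 7 beta genes minus that of the 7 alpha genes was -2.00 to -1.70 in control libraries (mean -1.85 ± 0.12 SD, n = 8) and -0.94 to -0.27 in distal libraries (mean -0.55 ± 0.27 SD, n = 6), with no overlap. With the GC and length trend removed the ranges were -1.77 to -1.39 and -1.04 to -0.62. With the trend of the principal transcripts they were -1.79 to -1.23 and -1.12 to -0.68, still apart. On the log2 CPM scale the alpha average was 8.63 ± 0.20 (SD) in control and 8.18 ± 0.17 (SD) in distal cells, and the beta average 6.78 ± 0.15 (SD) and 7.63 ± 0.11 (SD). Distal libraries 3 and 4, the deepest of that group, had the values nearest to the controls. No test was made of this difference, because the genes were grouped with their fold changes known.

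**Figure D4:**
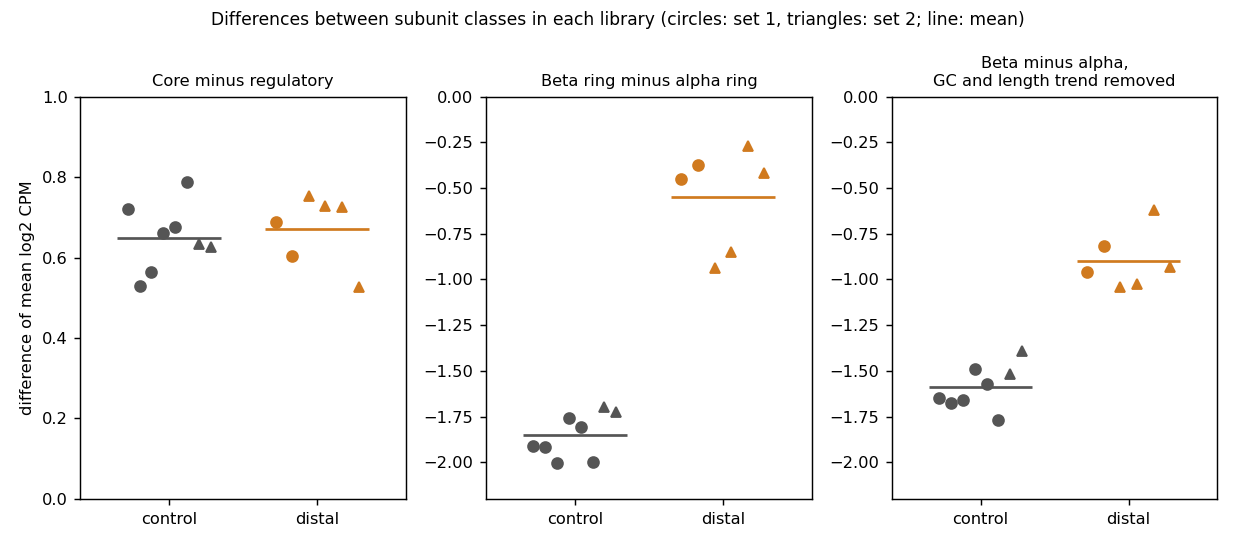
Difference of mean log2 CPM between subunit classes (vertical axes) in each library, with circles for set 1, triangles for set 2 and the group mean as a line. Core minus regulatory overlaps between the regions (left); beta ring minus alpha ring is higher in all 6 distal libraries (middle), also after the GC and length trend was removed (right).

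Of the ATPases, which form the ring that threads substrates into the core, Psmc3, Psmc4 and Psmc5 rose and Psmc6 fell. Psmc3 (chromosome 2, 91054009 to 91066369) had a lowest, median and highest value of 86.0, 104 and 120.4 CPM in control libraries and of 178, 218 and 244 CPM in distal libraries. The groups did not overlap, and the log2 fold change was 1.06 ± 0.12 (SE, edgeR adjusted p = 5.25e-06), or 0.52 with the trend removed (edgeR adjusted p = 0.00322). Psmc4 (chromosome 7, 28041707 to 28050101) ran from 62.4 over 72.7 to 102 CPM in control and from 115 over 131 to 175 CPM in distal libraries, again apart. It rose by 0.91 ± 0.15 (SE, edgeR adjusted p = 8.41e-05), a call that was lost with the trend removed (0.33, edgeR adjusted p = 0.0986). Psmc6 (chromosome 14, 45329788 to 45349705) had 517, 708 and 819 CPM in control and 232, 278 and 605 CPM in distal libraries, with distal libraries 3 and 4 at 459.8 and 605 CPM. The groups overlapped through distal library 4, and the log2 fold change was -0.97 ± 0.21 (SE, edgeR adjusted p = 0.00128), or -0.19 with the trend removed (edgeR adjusted p = 0.40). Psmc5 rose by 0.54 (edgeR adjusted p = 0.00533), not with the trend removed (0.31, edgeR adjusted p = 0.0993). Psmc1 at 0.30 and Psmc2 at 0.26 did not pass. They passed with the trend removed, Psmc2 at 1.04 (edgeR adjusted p = 0.000357) and Psmc1 at 0.37 (edgeR adjusted p = 0.046). With the trend of the principal transcripts Psmc2 passed at 0.42 (edgeR adjusted p = 0.0303). Psmc1 did not pass in that fit (0.35, edgeR adjusted p = 0.0581). With no trend removed, Psmc1 passed without control library 6 or distal library 3, 4 or 5, and Psmc2 without distal library 3 or 4.

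Among the non-ATPase genes, those that rose were the lid subunits Psmd3 and Psmd8, the ubiquitin receptor Psmd4, the large base subunit Psmd2 and the chaperone Psmd9, and those that fell were Psmd1, Psmd6, Psmd12 and Psmd14. Psmd3 (chromosome 11, 98682554 to 98695979) had a lowest, median and highest value of 40.0, 57.6 and 85.1 CPM in control libraries and of 123, 145 and 176 CPM in distal libraries. Its groups were apart, and it rose by 1.30 ± 0.16 (SE, edgeR adjusted p = 8.05e-06), or 0.58 with the trend removed (edgeR adjusted p = 0.00423). Psmd4 (chromosome 3, 95032694 to 95042614) ran from 62.0 over 84.5 to 117 CPM in control and from 158 over 175 to 202 CPM in distal libraries, without overlap. The rise was 1.03 ± 0.15 (SE, edgeR adjusted p = 4.1e-05), and it was lost with the trend removed (0.35, edgeR adjusted p = 0.0618).

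Psmd14, the deubiquitinase of the lid that cuts ubiquitin chains off the substrate (chromosome 2, 61711694 to 61800376), had 469, 730.1 and 859 CPM as the lowest, median and highest control value and 224, 273 and 609 CPM in distal libraries. Distal libraries 3 and 4, at 534 and 609 CPM, reached into the control range. The log2 fold change was -0.95 ± 0.24 (SE, edgeR adjusted p = 0.00378), and -0.11 with the trend removed (edgeR adjusted p = 0.678). Psmd6, a structural lid subunit (chromosome 14, 14112174 to 14120984), ran from 247 over 342 to 458 CPM in control and from 139 over 184 to 219 CPM in distal libraries, all distal ones below. It fell by 0.86 on the log2 scale (SE 0.16, edgeR adjusted p = 0.000262), and its estimate with the trend removed was -0.35 (edgeR adjusted p = 0.0779). Psmd1, the other large base subunit, had 365 to 477 CPM in control and 203 to 289.7 CPM in distal libraries. Its fall of 0.80 on the log2 scale (log2 fold change -0.80, edgeR adjusted p = 5.15e-05) held with either trend removed (-0.37, edgeR adjusted p = 0.0145, and -0.32, edgeR adjusted p = 0.0407).

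Psmd8 rose by 0.97, Psmd9 by 1.02 and Psmd2 by 0.40, and of these Psmd8 and Psmd9 kept their call with the trend removed (0.62 and 0.67). Psmd12 was at -0.41 (edgeR adjusted p = 0.00945), which turned to 0.18 with the trend removed (edgeR adjusted p = 0.309). The Psmd12 call was also lost without control library 6 or 8 and without distal library 1, 3, 4, 5 or 6 (edgeR adjusted p from 0.0604 to 0.108). Psmd13 at 0.34, Psmd11 at 0.21, Psmd7 at -0.08, Psmd10 at -0.09 and Psmd5 at -0.35 did not pass. Psmd13 passed without control library 6 or 7 or distal library 3, 4 or 5. Psmd11 passed with the trend removed (0.43, edgeR adjusted p = 0.0462), not with that of the principal transcripts (0.36, edgeR adjusted p = 0.0976). Psmd7, the partner of Psmd14 in the lid, had 231 to 315 CPM in control and 230.3 to 285 CPM in distal libraries. It was called lower with the trend removed (-0.87, edgeR adjusted p = 0.000167), not with that of the principal transcripts (edgeR adjusted p = 0.688). Psmd5, Psmd9 and Psmd10 are known as chaperones that assemble the base rather than as stable subunits. Without them 7 of 17 regulatory genes rose and 5 fell, with a median of 0.30. With counts summed per set Psmc6 and Psmd14 were still called lower, while Psmd1, Psmd6 and Psmd12 were not (edgeR adjusted p = 0.084, 0.10 and 0.65).

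Set side by side with no trend removed, the core and the regulatory particle had like shares of called genes. Of the 14 tested core genes 6 rose and 4 fell (median log2 fold change 0.03), and of the 20 regulatory genes 8 rose and 5 fell (median 0.28), where 24.3% of all tested genes rose and 24.1% fell. Core genes took 0.395% ± 0.050 (SD, n = 8) of all counts in control and 0.406% ± 0.024 (SD, n = 6) in distal libraries, and regulatory genes 0.370% ± 0.028 (SD) and 0.384% ± 0.032 (SD). The mean log2 CPM of the core minus that of the regulatory genes was 0.53 to 0.79 in control and 0.53 to 0.75 in distal libraries, so the groups covered the same range. With the trend removed the ranges were 0.48 to 0.72 and 0.65 to 0.81, and 7 of 14 core genes rose and none fell, against 7 and 2 of 20 regulatory genes, and 10.4% and 8.56% of all tested genes. With the trend of the principal transcripts 6 core genes rose and 1 fell. In that fit 2 regulatory genes rose and 2 fell, where 9.27% and 7.49% of all tested genes did. The ATPases minus the non-ATPase genes gave 0.03 to 0.28 in control and 0.34 to 0.49 in distal libraries, which did not overlap. That difference was not computed with a trend removed, so the part of GC content and length in it was not tested.

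Counted by library, 10 of the 34 subunits had every distal library above every control library and 4 had every one below, against 12.7% and 5.65% of all tested genes. Those above were Psma7, Psmb3, Psmb4, Psmb5, Psmb6, Psmc3, Psmc4, Psmd3, Psmd4 and Psmd8, and those below Psma6, Psmd1, Psmd6 and Psmd12. All 14 passed the test as well.

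Within a region the subunits had a lower median spread than all tested genes in their range of mean level. Levels were not matched within that range, so the part of level in this difference was not tested. The SD of log2 (CPM + 1) over libraries had a median of 0.26 in control and 0.21 in distal libraries over the 34 subunits, against 0.33 and 0.35 over 5257 tested genes in the same range of mean level. In the distal group 5 subunits had an SD above 0.5, as did 25.3% of those genes. They were Psma1, Psma3, Psmc6, Psmd14 and Psmd10, and the Psma1, Psma3, Psmc6 and Psmd14 values were highest in distal libraries 3 and 4. Between the sets of a region edgeR called 0 of 11757 genes, 0.00% in each direction, and so 0 subunits; no other tool was run for these contrasts. At an unadjusted p under 0.05 there were 8.24% of genes and 1 subunit, Psma2, between the control sets, and 7.83% of genes and 2 subunits, Psmc6 and Psmd14, between the distal sets. Leaving out 1 library at a time moved these counts to 0 to 6 subunits in the control sets and 0 to 6 in the distal sets, the 6 without control library 4 and without distal library 6.

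Levels per kilobase of principal transcript set the subunits of the complex against each other. In control cells they ran from 7.55 CPM per kb for Psmd9 to 604 for Psma1, an 80.1-fold range, and in distal cells from 14.3 for Psmd5 to 485 for Psma7, a 34.0-fold range. The highest in control cells were Psma1 at 604 ± 105 (SD), Psma6 at 491 ± 106 (SD) and Psmd14 at 447 ± 91.7 (SD) CPM per kb. These genes were measured in the same libraries, and differences between them were not tested. In distal cells the order began with Psma7 at 485 ± 55.1 (SD), Psmb6 at 381 ± 52.1 (SD) and Psma1 at 344 ± 147 (SD) CPM per kb. Psmb5 moved from rank 26 to rank 9 of 34 and Psmb3 from rank 18 to rank 7. The family medians were 319 and 189 CPM per kb for the alpha ring in control and distal cells, 85.2 and 176 for the beta ring, 69.7 and 115 for the ATPases and 60.1 and 72.4 for the non-ATPase subunits. In control cells the lowest 3 were Psmd9, Psmd5 and Psmd10, the assembly chaperones, and the same genes were lowest in distal cells. The order depended on the length used. Per kilobase of all exons Psma6 led in both regions, at 415 ± 89.9 (SD) and 223 ± 20.9 (SD) CPM per kb, followed in distal cells by Psmb2 and Psmb5, with Psma7 at rank 5. The range was then 153-fold in control and 40.3-fold in distal cells, Psmb5 moved from rank 17 to rank 3, and in control cells Psmd3 took the place of Psmd10 (rank 28) among the lowest 3.

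The subunit levels lay closer together in distal cells. The SD over the 34 subunits of log2 CPM per kb was 1.38 to 1.48 in control libraries and 1.00 to 1.29 in distal libraries, without overlap, and the upper quartile was 3.25 times the lower one in control and 2.17 times in distal cells. With the trend removed the SD ranges were 1.31 to 1.41 and 1.03 to 1.30, also without overlap. With the trend of the principal transcripts control library 2 (1.302) and distal library 4 (1.303) overlapped. With the length of all exons, a choice made after seeing the data, the groups were apart (lowest control 1.501, highest distal 1.37). Lengths are uncertain for genes with many transcripts, as for Psma3, whose principal transcripts have a median of 2846 bases and all its transcripts one of 875 bases.

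**Figure D5:**
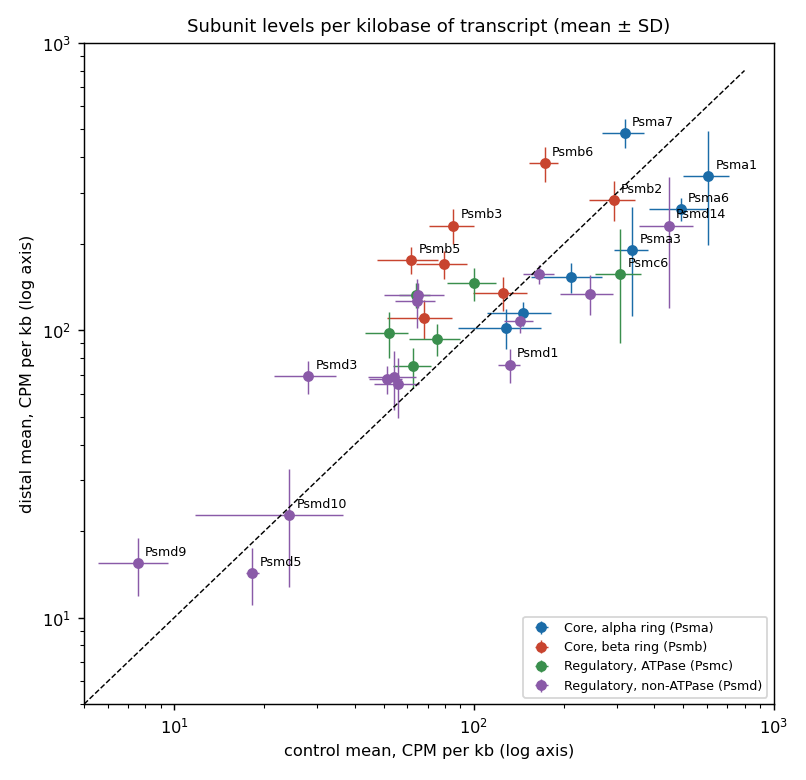
Mean level of each tested subunit per kilobase of principal transcript in control (horizontal) and distal cells (vertical), both in CPM per kb on log axes, with bars for the SD over 8 and 6 libraries and a dashed line for equal levels. Psmb3, Psmb5 and Psmb6 lie above the line and Psma1, Psma6 and Psmd14 below it, and the distal range (14.3 to 485) is narrower than the control range (7.55 to 604).

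The other genes of the pathway came from 6 lists with 39 symbols, of which Paaf1 had no row and Psmb9 was not tested. Of the 37 tested genes 14 rose and 12 fell (37.8% and 32.4%, against 24.3% and 24.1% of all tested genes), and 10 and 6 with the trend removed (27.0% and 16.2%, against 10.4% and 8.56%). No test was made over these lists, and the counts of each list below are read against the same shares of all tested genes. The inducible catalytic subunits, which replace Psmb5, Psmb6 and Psmb7 in immune-stimulated cells, stayed far below them. Psmb8 was at 0.626 ± 0.392 (SD) CPM per kb in control and 2.16 ± 1.51 (SD) in distal cells, beside 61.8 ± 14.3 (SD) and 176 ± 19.2 (SD) for Psmb5. Psmb10 was at 4.48 ± 1.22 (SD) and 7.95 ± 1.01 (SD), beside 68.0 ± 16.6 (SD) and 110.5 ± 17.3 (SD) for Psmb7. Psmb9 had 12 counts in all, in 5 libraries. Psmb8 (log2 fold change 1.74, edgeR adjusted p = 0.0249) and Psmb10 (0.83, edgeR adjusted p = 0.0221) were called higher, neither of them with the trend removed, and the Psmb8 call was lost without distal library 2 (edgeR adjusted p = 0.0928).

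Of the alternative caps and their inhibitor, 2 of 5 rose and 1 fell. Psme2, a subunit of the cap that opens the core to peptides, rose from 21.1 ± 3.88 (SD) to 48.7 ± 11.9 (SD) CPM (log2 fold change 1.21, edgeR adjusted p = 5.76e-05), and 1.09 with the trend removed. Its partner Psme1 rose by 0.78 (edgeR adjusted p = 0.00289), not with the trend removed (0.21). Psme4, the large single-chain activator of the nucleus, went from 291 ± 35.7 (SD) to 106 ± 46.1 (SD) CPM (log2 fold change -1.46, edgeR adjusted p = 3.81e-05), and -0.61 with the trend removed.

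Of the 5 tested assembly chaperones of the core, 2 rose and 1 fell. Psmg3, which helps to build the alpha ring, went from 7.17 ± 3.01 (SD) to 25.6 ± 2.65 (SD) CPM (log2 fold change 1.83, edgeR adjusted p = 3.48e-05), and 1.07 with the trend removed. Pomp, which joins the beta subunits to the alpha ring, rose by 0.59 (edgeR adjusted p = 0.00249), and by 0.71 with the trend removed. Psmg2 was at -0.67 (edgeR adjusted p = 0.00111), and at -0.22, not called, with the trend removed. Psmg4, at -0.29, did not pass (edgeR adjusted p = 0.306), and was called lower with the trend removed (-1.06, edgeR adjusted p = 0.00522).

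Of the 7 partners of the regulatory particle 1 rose and 5 fell, where 24.3% of all tested genes rose and 24.1% fell. With the trend removed 1 partner rose and 1 fell, where 10.4% and 8.56% of all tested genes did. Adrm1, a ubiquitin receptor, rose by 1.38 (edgeR adjusted p = 7.53e-06), and by 0.48 with the trend removed. The proteasome adaptor Ecpas was at -1.46 (edgeR adjusted p = 1.65e-06) and the deubiquitinase Uchl5, which binds Adrm1, at -1.09 (edgeR adjusted p = 8.61e-05). With the trend removed Ecpas kept its call (-0.62) and Uchl5 did not (-0.30).

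Of the transcription factors of proteasome genes and their processing enzymes none rose and 2 of 4 fell. Nfe2l1 was at 61.7 ± 13.8 (SD) CPM in control and 67.8 ± 16.4 (SD) CPM in distal cells (log2 fold change 0.13, edgeR adjusted p = 0.563), and Nfe2l2 at 129 ± 42.9 (SD) and 95.5 ± 21.9 (SD) CPM (-0.43, edgeR adjusted p = 0.0944). Ddi2, the protease that cuts Nfe2l1 into its active form, was at -0.81 (edgeR adjusted p = 0.00352) and Ngly1, which removes its sugars, at -0.90 (edgeR adjusted p = 0.0145). The Ngly1 call was lost without distal library 2, 3, 4 or 5 and with the trend removed (0.05), where Ddi2 kept its own (-0.63, edgeR adjusted p = 0.0493). Nfe2l2 passed without control library 2 (edgeR adjusted p = 0.0491).

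Of the 14 genes for ubiquitin, its activating enzymes and its shuttles 7 rose and 3 fell. The ubiquitin gene Ubb rose from 90.0 ± 23.5 (SD) to 227 ± 33.5 (SD) CPM (log2 fold change 1.33, edgeR adjusted p = 1.19e-05). With the trend removed Ubb was at 0.43 and was still called.

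Some subunit values are uncertain because of copies elsewhere in the genome. Processed pseudogenes with at least 95% identity over 200 or more bases were annotated for Psma3, Psma4, Psma5, Psmb3, Psmb5, Psmc1, Psmd2 and Psmd11. The row with most counts was Gm13835, identical to Psma3 over 665 bases, with 4841 counts or 8.89% of the Psma3 count. For the other pseudogene copies the count was at most 3.43% of that of the subunit gene (Gm5422 for Psmd2). A730017L22Rik, a processed transcript like Psmd11 in sequence, had 4.77% of the Psmd11 count. Besides Psmb7, exons overlap on the opposite strand for Psmc3 (147 bases with Slc39a13, which had 1005 counts to 8955 for Psmc3), for Psmd1 (252 bases with Htr2b, 334 counts to 23030) and for Psmd13 (329 bases with Sirt3, 147 counts to 7368). How reads that match both were counted is not given in the labels, notes or files used here.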

How the data were processed

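The authors deposited a table of raw counts per gene symbol for 14 libraries, made with Smart-seq2 and Nextera XT per the labels' protocols. The submitters' processing notes name HISAT2 and featureCounts as tools and mm10 (GRCm38) as the build; strand setting and treatment of multi-mapping reads are not given in the sources used here. Members and lists were chosen with earlier results of these data known.

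R 4.3.3 and edgeR 4.0.16 were used for the test: filterByExpr, which kept 34 of 36 subunits, TMM scaling, and a two-sided robust quasi-likelihood F test on region over all 14 libraries, with Benjamini-Hochberg adjustment over all tested genes and a threshold of 0.05. SE values are |log2 fold change| over the square root of F. CPM uses TMM-scaled totals; class means use log2 CPM with a prior count of 2. Sets were compared in a model with 4 sets. To remove the GC and length trend, splines of GC content and of log2 length (natural, with 4 degrees of freedom) were fitted to the deviations of each library from the gene means and entered as offsets; 99.1% of tested genes had an annotation (GENCODE, GRCm38). Copies were found with blastn 2.17.0. The code was tested on simulated counts.

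Named in full were the catalytic subunits and, in each family, up to 2 largest rises and falls past the threshold; Psmb2, Psmb4, Psma1 and Psmd1 were added after their values were seen. Of each pathway list up to 3 genes with the smallest p and the inducible subunits were named, and Psmg4 was added after its values were seen. Some results are not reported here. Alternatives were other scalings, DESeq2 1.42.0, limma-voom (limma 3.58.1), other filters, counts summed per set, thinned counts, libraries over 4000000 counts, the replicate block, and leaving out each set and library. Floors from counts cover counting error only. The 23 pairs of libraries within sets all differed beyond sampling noise, with chi-square values of 6.83 to 40.0 for each degree of freedom.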

Additional observations from a re-analysis of the deposited data

Results flagged for a closer look

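For 3 subunits control library 6 stood apart from the other 7 control libraries by Dixon's criterion. Psma5 was at 272 CPM there, with the next value at 158 and the lowest at 109 CPM. Psmc4 was at 102 CPM, with the next at 77.3 and the lowest at 62.4 CPM. Psmd10 was at 74.3 CPM, with the next at 40.2 and the lowest at 16.3 CPM. In all, 68 groups of values were examined, and chance gives about 1 in 20, or 3.4, such values if the groups are independent. They are not, since they share libraries, and all 3 values came from control library 6. Among the control libraries it also had the highest share of counts in core genes (0.496%) and in regulatory genes (0.421%). Without control library 6 the log2 fold change of Psma5 was -0.06 and that of Psmd10 was 0.27, neither called, and Psmc4 stayed called with 1.10; the cause was not tested.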

How the results depend on the processing

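Psmb3 kept its call in all 32 alternatives, and no subunit was called in opposite directions by the fits with and without the trend. The number of called genes, 5681, became 3582 with counts summed per set, 2208 with the GC and length trend removed, 312 with both, 1243 in libraries over 4000000 counts, 2267 without control set 1 and 1953 with the trend of the principal transcripts, which was added after seeing the data. Upper-quartile scaling gave 3255 higher and 2202 lower genes, where TMM gave 2853 and 2828. Core genes called higher numbered 2 with the trend removed and counts summed per set. Core genes called lower numbered 0 with counts summed, the trend removed, both, libraries over 4000000 counts or without control set 1, 2 without distal set 1, and 1 with the trend of the principal transcripts. Regulatory genes called higher numbered 1 with trend removal and summing, 5 in libraries over 4000000 counts and 2 with the trend of the principal transcripts, and those called lower 2 with counts summed, with either trend removed or without control set 1, 0 with trend removal and summing, and 1 in libraries over 4000000 counts. Leaving out 1 library at a time gave 4911 to 5842 genes, 6 core genes higher in each case and 3 to 4 lower, and 8 to 11 regulatory genes higher and 4 to 5 lower.

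Replicate numbers did not pair the libraries: of 6 same-numbered pairs, deviations correlated at -0.017 to 0.11, with 1 over 0.1, and 2 of 6 distal libraries correlated best with their own number. With the replicate block 5442 genes were called, with 6 core genes higher and 5 lower and 8 and 5 regulatory genes. The replicate block with the trend removed called 1907 genes, 8 core genes higher and 1 lower, and 4 regulatory genes higher and 1 lower.

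The median over all genes was above 0 with upper-quartile scaling (0.00403), counts summed (0.0116), the trend removed (0.0296), both (0.050), no control set 1 (0.0259), the replicate block with the trend removed (0.0345) and the trend of the principal transcripts (0.0333), and the alpha ring median was 0.0546 with trend removal and summing. The signs that turned are given here as log2 fold changes. With the trend removed they were Psmd5 0.0841, Psmd12 0.18, Psma2 0.615, Psmd10 0.709, Psmb10 -0.20, Ngly1 0.0476 and Nfe2l2 0.264. With trend removal and summing they were Psmd5 0.0229, Psma5 0.0695, Psma4 0.0546, Psmd12 0.314, Psma2 0.905, Psmd10 0.889, Psmb10 -0.335, Ngly1 0.0796 and Nfe2l2 0.331. With the replicate block and the trend removed they were Psmd5 0.0536, Psmd12 0.131, Psma2 0.435, Psmd10 0.514, Psmb10 -0.107 and Nfe2l2 0.267. With the trend of the principal transcripts they were Psmd5 0.382, Psmd13 -0.213, Psma4 0.0373, Psmd12 0.207, Psma2 0.608, Psmd10 0.63, Psmb10 -0.124, Psme1 -0.00576 and Nfe2l2 0.0024. With counts summed they were Psmb2 0.198, Psmd7 0.151 and Psmd10 0.176, and without control set 1 Psmb2 0.191, Psmd7 0.0955, Psma2 0.153 and Psmd10 0.655. Upper-quartile scaling gave Psmb2 0.116, Psmd7 0.0919 and Psmd10 0.0796, and a mean CPM of at least 5 gave Psmb2 0.0606, Psmd7 0.0274 and Psmd10 0.0294. Libraries over 4000000 counts gave Psmb2 0.193, Psmd11 -0.0179 and Psmb1 -0.126, thinned counts Psmb2 0.0837, no distal set 1 Psmb2 0.0522 and Psmd10 0.141, and no distal set 2 Psmd7 0.0154. Leaving out 1 library gave -0.0831 to 0.117 for Psmb2, -0.0983 to 0.0574 for Psmd7 and -0.256 to 0.268 for Psmd10. The causes were not tested; depth differs between the regions without overlap, so its part cannot be told apart from that of the region.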
